A study of Thermothelomyces thermophilus ATCC 42464 with 3 samples.

Results

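The genes described here are the most abundant messenger RNAs of wild-type (WT) Thermothelomyces thermophilus ATCC 42464 on cellulose, apart from those that differed most between the libraries. Members were chosen by their read counts. All 9292 genes were ranked by mean WT level in CPM (counts per 1000000 counts) and the 150 highest were taken. From these, 11 genes were dropped because their level in the library labelled deletion was at least 4-fold above or below both WT libraries, and 4 more were dropped by name, among them MYCTH_109566, MYCTH_66729 and MYCTH_86753, which ranked 2, 4 and 5 of all genes in WT. That left 135 of 9292 genes. The levels and the differences between libraries were both used in this choice, so they are given below as descriptions with no test.

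There were 3 libraries of mycelium from strain ATCC 42464, which had grown for 16 h at 45 °C in Vogel's salts with 2% glucose and then spent 4 h in medium with 2% Avicel, a microcrystalline cellulose. The WT group had 2 libraries, and 1 further library was labelled as a mutant with MYCTH_90344 deleted. The labels do not say if the WT libraries were separate cultures, or if the mutant was 1 clone, so the spread of the WT pair may be technical. MYCTH_90344 itself was at 9.94 and 11.7 CPM in the WT libraries and at 336 CPM in the library labelled deletion, which goes against that label. Higher and lower below therefore refer to that library alone.

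When a filamentous fungus is moved from glucose to cellulose it makes secreted enzymes that cut the polymer, and it goes on making the proteins of translation, energy metabolism and transport that every growing cell needs. A small number of genes usually supplies a large part of the mRNA. The level of an mRNA follows both how fast it is made and how fast it decays, and total mRNA per cell is not measured by a library scaled to its own total. The gene table used here gave no function and no symbol for any of the 135 members, so they are described by locus tag, level, length and intron content. All 135 were protein-coding genes. Total counts were 21827636 and 20166880 in the WT libraries and 20774092 in the library labelled deletion.

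The 135 members held a large part of all counts in WT and a smaller part in the library labelled deletion. Members were chosen as the highest in WT, and that choice by itself favours a smaller part in any other library. They took 31.7% and 31.2% of all counts in WT replicates 1 and 2, a mean of 31.4% ± 0.354 (SD, n = 2), and 28.1% in the library labelled deletion (95% Wilson interval 28.1 to 28.2%, counting error only). Per base of exon the same order held, with 34.3% ± 0.237 (SD, n = 2) in WT and 31.0% in the library labelled deletion. The 10 most abundant members did not share in this difference of the sum. They took 7.75% ± 0.0321 (SD, n = 2) of counts in WT and 7.76% in the library labelled deletion. That sum joined opposite differences, with 6 of the 10 below their WT mean and 4 above. Among the latter was MYCTH_112322, at a mean of 4686 CPM in WT and at 10012 CPM in the library labelled deletion. The other 125 members took 23.7% ± 0.322 and 20.4% of counts.

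Levels in WT fell off steeply at first and then slowly. Mean WT CPM ran from 1232 to 15241 with a median of 1713. 2 members were above 10000 CPM, 9 above 5000 and 44 above 2000, and the other 91 lay between 1232 and 2000 CPM. The counts behind these levels were at least 24005 in WT and 7024 in the library labelled deletion, so counting error was at most 1.19% of a count. The SD of the WT pair had a median of 2.90% of the mean and a highest value of 8.40%. MYCTH_2300252 had the largest fold difference between the WT libraries (1.13-fold), at 2503 and 2223 CPM, and was at 2606 CPM in the library labelled deletion. MYCTH_109510 differed the other way round, at 2098 and 2346 CPM against 2354 CPM, and MYCTH_2084695 stood at 1664 and 1866 CPM against 587 CPM. For MYCTH_109510 the library labelled deletion was close to WT replicate 2, whereas for MYCTH_2084695 it was far from both.

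**Figure D1:**
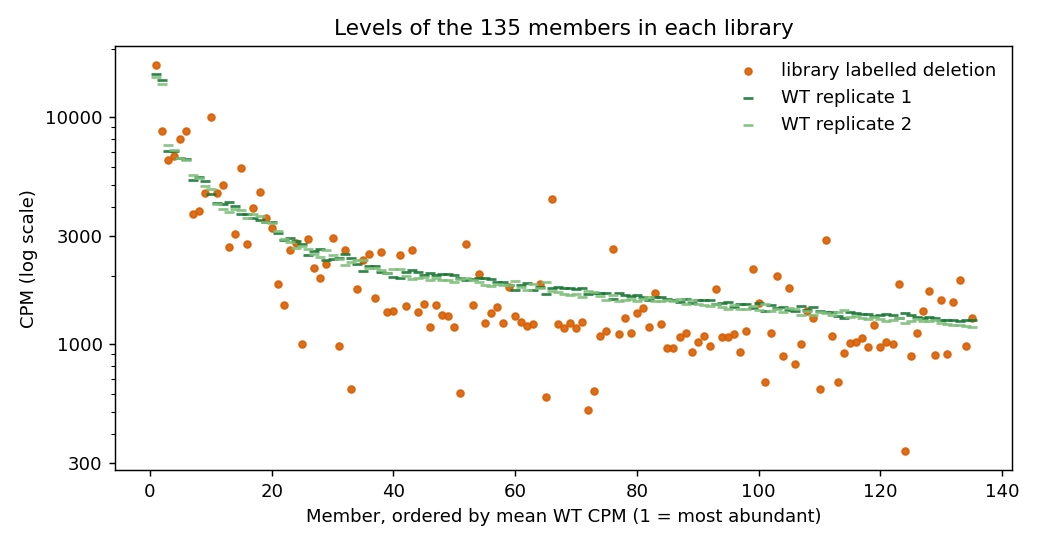
CPM of each of the 135 members (vertical axis, log scale) in order of mean WT CPM (horizontal axis), with bars for the 2 WT libraries and a point for the library labelled deletion. The WT bars nearly coincide, while the points scatter from 338 to 16888 CPM and lie mostly below the bars.

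The choice at rank 150 cut through a dense part of this order. The last members, MYCTH_2296382, MYCTH_2315209 and MYCTH_2311591, had mean WT levels of 1238, 1235 and 1232 CPM. The first genes left out, MYCTH_2297052, MYCTH_2314011 and MYCTH_110640, had 1224, 1218 and 1212 CPM, less than 1 SD of the WT pair away (58.9 CPM for MYCTH_2311591). At the fold limit the gap was wider when read against the WT mean. MYCTH_100068 and MYCTH_112471 were the members closest to the limit, at 3.85- and 3.70-fold below the WT mean. MYCTH_111088 and MYCTH_33936 were the nearest genes dropped for their fold, at 4.63- and 4.70-fold below. MYCTH_109566, dropped by name, had a ratio of 0.262 to the WT mean, between those of the 2 members (0.260 and 0.270). The rule used each WT library, however. Against WT replicate 1 alone MYCTH_100068 had a log2 ratio of -2.02, past the 4-fold limit. It was kept only because its log2 ratio against WT replicate 2 was -1.87. Above WT, MYCTH_2297550 was the closest member at 2.50-fold, and MYCTH_82782, the only gene left out on that side, was at 5.77-fold.

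The most abundant member had the highest WT mean of all genes. MYCTH_2314451 was at 15505 and 14977 CPM in WT and at 16888 CPM in the library labelled deletion, where it ranked first of all genes. MYCTH_2303328 was at 14533 and 13948 CPM in WT and at 8697 CPM in the library labelled deletion. These were the only members above 10000 CPM in WT, and they stood on opposite sides of their WT values.

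The next 4 members formed a group with similar WT levels. MYCTH_112686 had 7059 and 7489 CPM in WT, against 6450 CPM in the library labelled deletion. MYCTH_2297659 had 7066 and 7149 CPM against 6715 CPM. MYCTH_2141513 had 6564 and 6584 CPM against 7986 CPM. The first and the second were a little under both WT values, whereas MYCTH_2141513 was above both, as was the next in order. MYCTH_108407 had 6505 and 6487 CPM in WT, against 8674 CPM in the library labelled deletion.

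The next 4 members in order differed in how far they stood from WT. MYCTH_87219 was at 5283 and 5559 CPM in WT and at 3752 CPM in the library labelled deletion. MYCTH_2133976 was at 5446 and 5373 CPM against 3848 CPM. Both were near 0.70 of their WT mean, with ratios of 0.692 and 0.711. MYCTH_2298136, at 5235 and 4942 CPM in WT, was at 4603 CPM, and MYCTH_112322, at 4570 and 4803 CPM in WT, was at 10012 CPM. With that level MYCTH_112322 moved to rank 4 of all genes in the library labelled deletion. Of the 10 most abundant members, 4 were above and 6 below their WT mean.

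**Figure D2:**
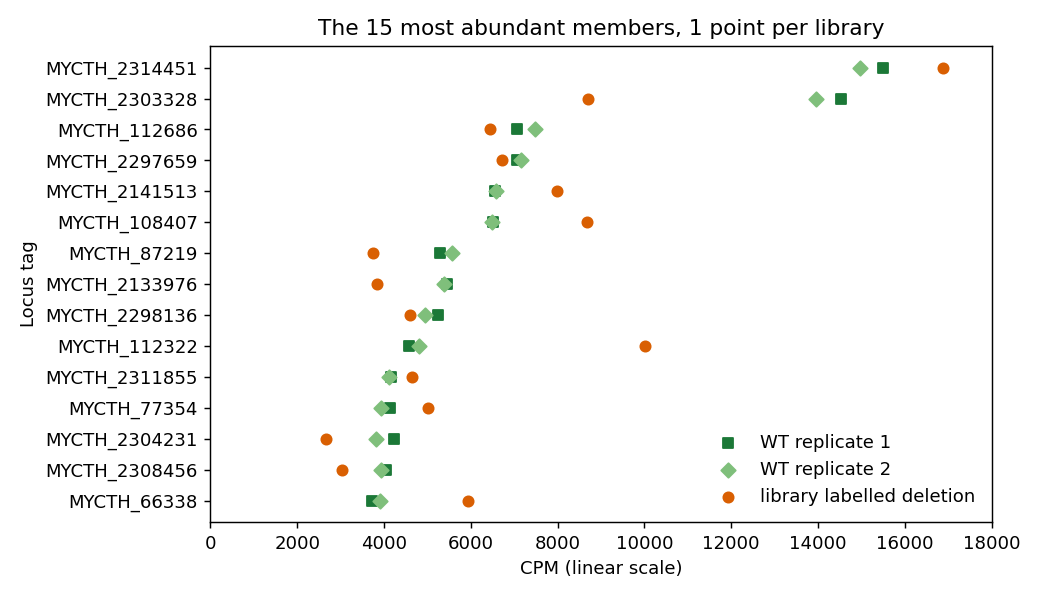
CPM on a linear scale (horizontal axis) of the 15 members with the highest mean WT level (vertical axis), with 1 point for each of the 3 libraries. The WT points lie close together, MYCTH_112322 stands far to the right of them at 10012 CPM in the library labelled deletion, and MYCTH_2303328 stands to their left at 8697 CPM.

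Counting reads per gene favours long genes, so the order was also read per length. FPKM is fragments per 1000 bases of exon and per 1000000 fragments. On that scale the most abundant member was MYCTH_45669, with 264 exonic bases, at 16298 and 16589 FPKM in WT and 21107 FPKM in the library labelled deletion. MYCTH_2303328 came second, at 15579 and 14654 FPKM in WT and 9125 FPKM in the library labelled deletion. MYCTH_2133976 came next, at 10073 and 9739 FPKM against 6965 FPKM. Of the 10 members highest in FPKM, 6 had fewer than 1000 exonic bases, among them MYCTH_57779 with 411 bases and MYCTH_2039818 with 420. MYCTH_2314451, first by CPM, was sixth of all genes by FPKM, at 7934 and 7511 FPKM in WT.

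In all, 101 of the 135 members were also among the 150 highest genes by mean WT FPKM and 34 were not. Only 2 members were below rank 300 on that scale. One was MYCTH_110821, with 3498 exonic bases, the longest member but one. The other was MYCTH_2313501, whose recovered exonic length was 41539 bases. It was at 2392 and 2373 CPM in WT, rank 40, but at 70.2 and 68.3 FPKM, rank 1868. In the library labelled deletion it was at 984 CPM, a ratio of 0.413 to WT. Its span overlaps 1 annotated tRNA gene, which had 0 counts in every library.

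**Figure D3:**
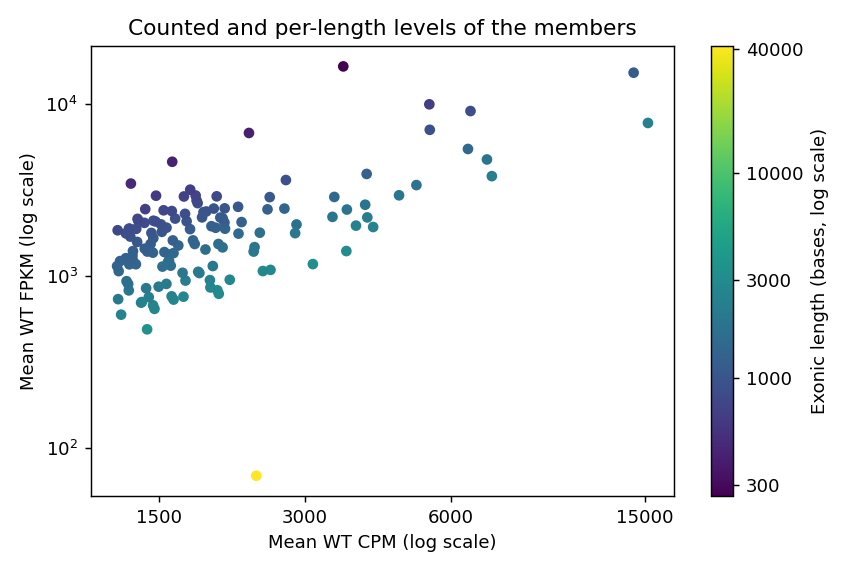
Mean WT FPKM (vertical axis, log scale) against mean WT CPM (horizontal axis, log scale) for the 135 members, coloured by exonic length on a log scale. Short members lie high in the cloud, and MYCTH_2313501, with 41539 exonic bases, lies alone at 69.2 FPKM.

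Across the 135 members the commonest difference was a level near 0.7 of WT in the library labelled deletion. The ratio of CPM in that library to the WT mean ran from 0.260 to 2.50 with a median of 0.754 and quartiles of 0.683 and 1.05. On the log2 scale, with 0.1 CPM added, the median was -0.41, against 0.02 over the 8340 genes tested and -0.24 over the genes ranked 151 to 300. In 97 members (71.9%) the ratio was below 1, against 48.8% of tested genes and 64.7% of the genes ranked 151 to 300. Ranking by WT level favours ratios below 1 in the members, and the tested genes as a whole were not chosen that way. The library labelled deletion lay below both WT values in 96 members, above both in 37 and between them in 2. Among all tested genes 43.7% lay below both and 46.5% above both.

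Many members lay in the same interval of ratios. Between 0.60 and 0.80 lay 67 of the 135 members (49.6%), against 15.2% of tested genes and 37 of the 150 genes ranked 151 to 300. The limits of this interval were chosen after the values were seen. The WT levels of the members in it ran from 1235 to 14240 CPM. These 67 members took 13.8% ± 0.309 (SD, n = 2) of counts in WT and 9.64% in the library labelled deletion. The other 68 members, which include ratios on both sides of 1, took 17.7% ± 0.0448 (SD, n = 2) and 18.5%. Both sums follow from the split by ratio and are a description of it.

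The 67 members also differed slightly between the WT libraries themselves. WT replicate 1 was the higher of the pair in 57 of the 67, with a median ratio of replicate 2 to replicate 1 of 0.958. Among the other 68 members replicate 1 was higher in 43, with a median ratio of 0.991. The median ratio was 1.01 over all tested genes and 0.992 over the genes ranked 151 to 300. Thus WT replicate 2 stood on the same side of replicate 1 as the library labelled deletion did in most of the 67, by a much smaller amount.

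**Figure D4:**
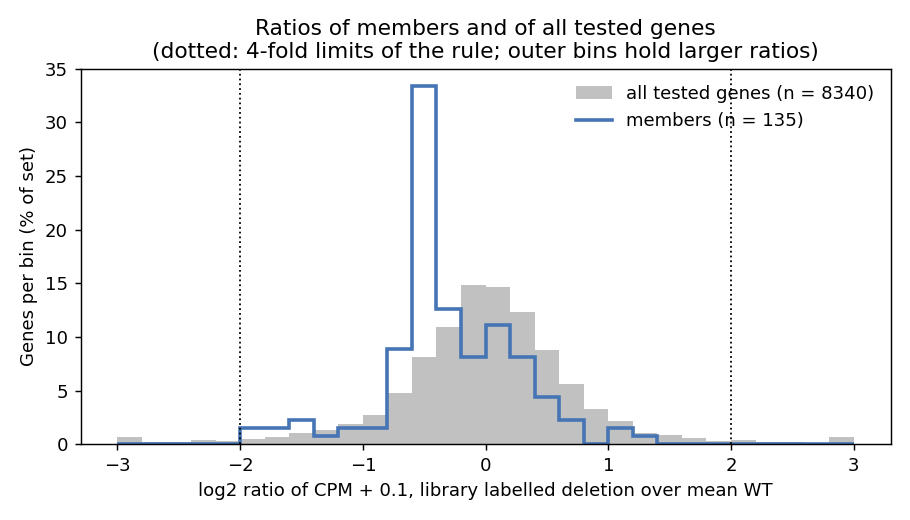
Share of genes per bin (vertical axis, percent) against the log2 ratio of the library labelled deletion to mean WT with 0.1 CPM added (horizontal axis), for the 135 members (blue line) and the 8340 tested genes (grey). The members peak below 0, with a median of -0.41, whereas all tested genes centre near 0, with a median of 0.02.

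The edgeR quasi-likelihood test over all genes, at an adjusted p of 0.05, gave calls for 112 of the 135 members. It called 25 (18.5%) higher and 87 (64.4%) lower in the library labelled deletion, against 28.1% and 27.6% of all tested genes. With a difference of at least 2-fold as well, 3 members (2.22%) were called higher and 11 (8.15%) lower, against 5.98% and 6.65% of all tested genes. Because the members were chosen with these same values, nothing is read from the calls. Only the WT pair informed the spread, and its biological coefficient of variation, or BCV, was 0.0484. When every gene was given a BCV of 0.2, the likelihood ratio test called 13 members, or 9.63%, against 12.2% of tested genes.

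The members furthest below WT kept 0.260 to 0.468 of their WT level. MYCTH_100068 was at 1368 and 1237 CPM in WT and at 338 CPM in the library labelled deletion, the lowest level of any member in any library, at rank 523 of all genes. MYCTH_112471 was at 2402 and 2304 CPM against 636 CPM. MYCTH_2315513 was at 1663 and 1711 CPM against 512 CPM. In each the library labelled deletion was far below both WT values.

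MYCTH_2296005 was at 1945 and 1933 CPM in WT and at 609 CPM in the library labelled deletion. MYCTH_110651, the most abundant of this group in WT, was at 2745 and 2700 CPM against 999 CPM. MYCTH_114107 was at 1671 and 1689 CPM against 620 CPM. The group was completed by MYCTH_2084695 and MYCTH_2313501, given above, and by MYCTH_2295005 and MYCTH_2122637, which were 0.456 and 0.468 of WT. None of these 10 members was among the 150 highest genes in the library labelled deletion, where their ranks ran from 167 to 523. All 10 had intronic sequence, and their median exonic length was 1998 bases.

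The members furthest above WT reached 1.39 to 2.50 times their WT level. MYCTH_2297550 was at 1770 and 1714 CPM in WT and at 4362 CPM in the library labelled deletion. MYCTH_107178 was at 1388 and 1373 CPM against 2865 CPM. With MYCTH_112322, these were the only members at 2-fold or more above WT by CPM, whereas 10 members were 2-fold or more below.

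The other 7 of the 10 highest ratios lay between 1.39 and 1.62. MYCTH_2313432 was at 1572 and 1648 CPM in WT and at 2611 CPM in the library labelled deletion, and MYCTH_66338 at 3736 and 3907 CPM against 5937 CPM. MYCTH_2296382, MYCTH_2313783, MYCTH_2295438, MYCTH_2095451 and MYCTH_2296247 had ratios of 1.54, 1.47, 1.43, 1.41 and 1.39. All 10 remained among the 150 highest genes in the library labelled deletion, at ranks 4 to 65, and their median exonic length was 2167 bases. Over all members, 98 were among the 150 highest genes of that library, 37 were not, and 3 were below rank 300. A choice by WT rank favours such losses of rank.

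Gene structure was not used in the choice of members. Exonic lengths were recovered from the deposited FPKM and counts, and intronic bases were the annotated span less the exonic length. Of the 135 members, 121 (89.6%) had intronic bases, against 75.1% of the 8827 protein-coding genes with a read and 92.7% of the genes ranked 151 to 300. The median member had 224 intronic bases, or 14.2% of its span, against 125 bases and 6.93% over all protein-coding genes with a read. For the genes ranked 151 to 300 these medians were 243 bases and 13.4%, so this intron content was not particular to the members. Median exonic length was 1323 bases in members, 1540 in the genes ranked 151 to 300 and 1572 over all protein-coding genes with a read. Since CPM rises with length at a given number of molecules, the choice by CPM acts on length as well, and ranking by FPKM instead gave genes with a median of 1002 exonic bases, 92.5% of them with intronic bases.

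Ratios differed with length. Of the 38 members under 1000 exonic bases, 31 (81.6%) were below 0.80 of WT, with a median ratio of 0.711. Of the 63 members with 1000 to under 2000 bases it was 37 (58.7%), with a median of 0.761, and of the 34 longer members 14 (41.2%), with a median of 0.945. Over all tested genes the same order was found but with a smaller range of medians, 0.970, 0.991 and 1.06, and for the genes ranked 151 to 300 the medians were 0.793, 0.829 and 0.945. The shares below 0.80 in the same 3 classes were 34.0%, 29.1% and 20.5% over all tested genes and 50.0%, 40.3% and 39.5% over the genes ranked 151 to 300. WT replicate 2 also stood lower against replicate 1 in short members, with median ratios of 0.956, 0.968 and 0.995 in the 3 classes. This order was not particular to the members. The medians were 0.994, 1.002 and 1.034 over all tested genes and 0.959, 1.003 and 1.018 over the genes ranked 151 to 300. Across the 135 members Spearman's rho between exonic length and ratio was 0.251, a description over genes that share the same 3 libraries.

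By their medians, the 67 members at 0.60 to 0.80 of WT had shorter exonic lengths and more intronic bases than the other members. Their median exonic length was 1065 bases, against 1779 in the other 68 members, and 28 of them were under 1000 bases, against 10. Intronic bases made up a median of 19.5% of their span, against 9.51%. In numbers of genes, 62 of the 67 and 59 of the 68 had intronic bases. Of the most abundant members, MYCTH_2303328, MYCTH_87219, MYCTH_2133976, MYCTH_2304231 and MYCTH_2308456 belonged to the 67, with exonic lengths of 1137, 928, 659, 1242 and 1860 bases.

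**Figure D5:**
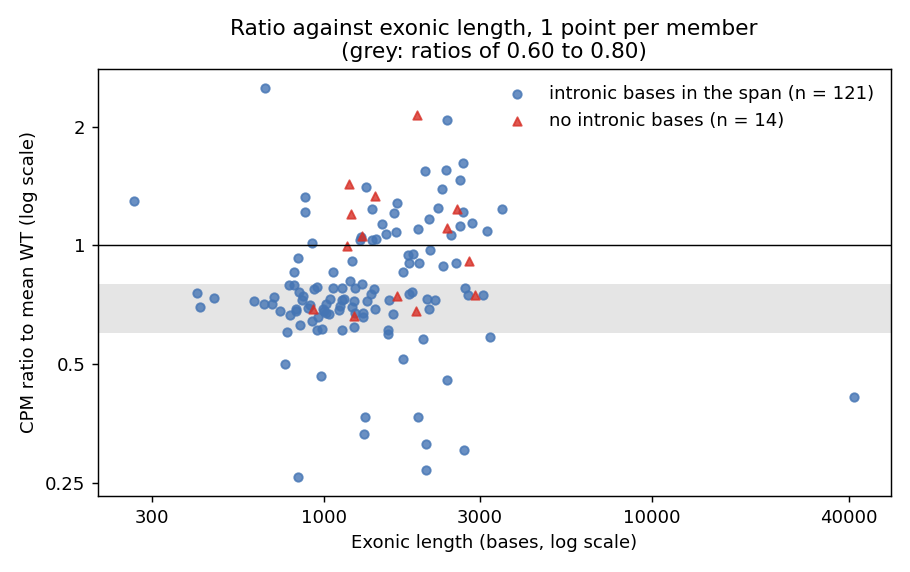
Ratio of the library labelled deletion to mean WT CPM (vertical axis, log scale) against exonic length in bases (horizontal axis, log scale), 1 point per member, with triangles for the 14 members without intronic bases. Of the 38 members shorter than 1000 bases, 28 lie in the grey interval of 0.60 to 0.80. So do 32 of the 63 members with 1000 to under 2000 bases and 7 of the 34 longer members.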

How the data were processed

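RNA was sequenced from 3 libraries. The authors deposited 1 table of raw read counts and FPKM per gene, per the file headers. TopHat2 2.0.8b and HTSeq 0.5.4p2 are named in the submitters' processing notes. Settings, genome build and strandedness were not given in the sources used here. Genes with overlapping spans (9 of the 135 members, among them MYCTH_2313501, MYCTH_2084695 and MYCTH_112137) may therefore share or lose reads.

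CPM were computed from the column totals. Counts were fitted with edgeR 4.0.16 in R 4.3.3 (filterByExpr kept 8340 genes and left out 952; TMM scaling; quasi-likelihood test, Benjamini-Hochberg over all tested genes). The spread had 1 residual degree of freedom and 30.0 prior degrees of freedom, and the single library labelled deletion was assumed to vary like WT. The fit was also run on simulated data in which all libraries had the same spread, so that run could not check this assumption. DESeq2 1.42.0 was an alternative.

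The FPKM deposited by the authors equal count over length over a library total that was 0.838 of the column total in the library labelled deletion and 0.820 and 0.837 in WT replicates 1 and 2. With that factor set so that intronless genes match their annotated span in assembly ASM22609v1, the length came out whole within 0.02 bases for all 8847 genes with a read, exceeded the span in 0 and equalled it in 2214. All 9292 locus tags matched that table. Coordinates are left out, since nothing states which build the authors used.

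Named genes were the 15 most abundant members, the 10 highest and 10 lowest ratios, the 10 highest in FPKM, those next to the limits of the rule, the 3 largest WT differences and MYCTH_90344. MYCTH_2313501's length, MYCTH_110821 and neighbouring members were singled out after their values were seen. The members, lists and tests were chosen with earlier results of these data known. Searches of protein sequences were planned and not run, because the reference used here held no protein sequences for this organism. No column of other samples was present.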

Additional observations from a re-analysis of the deposited data

How the results depend on the processing

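Of the 135 members, edgeR called 112 (25 higher, 87 lower), against 28.1% higher and 27.6% lower of all tested genes. Other scalings, no filter on low counts and DESeq2 gave 110 to 118. For these the share of all tested genes is not given, so nothing is read from them. With a BCV of 0.2 the likelihood ratio test called 13 (3 higher, 10 lower), by construction with a larger spread. That was 9.63%, against 12.2% of all tested genes. Requiring a 2-fold difference as well, an alternative chosen after the data were seen, left 14 (3 higher, 11 lower). The shares of all tested genes were then 5.98% higher and 6.65% lower. Taking the 100 highest genes kept 87, by construction, and 200 kept 180. Ranking by FPKM kept 134, of which 101 were members, and ranking by 1 WT library kept 135, of which 133 were members. The median log2 ratio of members lay between -0.43 and -0.38 over the scalings and with either WT library left out. Among 48 named members, none changed side of its WT level under these scalings or left-out libraries, and the largest shift in log2 ratio was 0.09. Over all 135 members, 2 changed side of their WT level, the larger of their log2 ratios being 0.02 in size. The 67 members between 0.60 and 0.80 were 66 with TMM scaling and 61 to 66 with a WT library left out, alternatives also chosen after the data were seen. Leaving out the library labelled deletion was not possible, and leaving out a WT library leaves no residual degree of freedom, so those values have no test. No paired analysis was possible because there was 1 library labelled deletion and no label ties it to either WT library. Depth did not limit the members, whose lowest count was 7024.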

Other observations

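In the gene order of assembly ASM22609v1, 9 members lay next to another member, in 5 neighbouring pairs. How many pairs a like number of other genes would give was not tested. Like ratios in neighbours are a description only, since 49.6% of all members lay between 0.60 and 0.80. MYCTH_112137 and MYCTH_112136 had ratios of 0.684 and 0.602 to WT, and MYCTH_2298252 and MYCTH_75107 had 0.694 and 0.775. In a run of 3 neighbours, MYCTH_2316753, MYCTH_71631 and MYCTH_2312962 had ratios of 0.905, 0.668 and 0.615. MYCTH_2297548 and MYCTH_2297550 stood apart from each other, the first at 1597 ± 71.4 CPM (SD, n = 2) across the WT pair and 1370 CPM in the other library, the second at 1742 ± 39.5 CPM and 4362 CPM. The member with the largest ratio lay beside a member that was below its WT level, as were 71.9% of all members.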
